A study of Mus musculus with 6 samples.

Results

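The genes described here are 7 unconventional myosins of the mouse cochlear duct, *Myo6*, *Myo15*, *Myo3a*, *Myo1c*, *Myo1e*, *Myo5a* and *Myo10*. They were chosen by symbol from the 14865 genes of the expression table, and all 7 symbols were found there, each in 1 row. The choice leaves out *Myo7a*, which serves below as a comparison. Poly(A) RNA was sequenced from cochlear ducts of C57BL/6 mice at postnatal day 8 (P8), in 3 libraries of Gfi1+/+ mice and 3 libraries of Gfi1cre/+ mice. The Gfi1cre/+ mice carry 1 copy of *Gfi1* in which Cre replaces coding exons, so that Cre is made wherever the *Gfi1* locus is active, and their other copy is intact. A Gfi1+/+ library held both cochleae of 1 mouse, whereas a Gfi1cre/+ library held the cochleae of 3 pooled mice. The values are read counts divided by a size factor for the library and are called normalized reads, and each run of 3 values below gives replicates 1, 2 and 3 in that order. The question put to each gene was whether its RNA level in the whole duct differed when 1 *Gfi1* copy was replaced.

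Unconventional myosins are motors that move along actin filaments or hold membranes to them. Hair cells, the sensory cells of the cochlea, carry bundles of actin-filled stereocilia, and several of these motors are known for building or holding that bundle: mutations of *Myo6*, *Myo15* and *Myo3a* cause deafness. The class I, V and X motors are made in many cell types of the duct and work in membrane tension, endocytosis, cargo transport and filopodia. GFI1 is a transcriptional repressor that hair cells need to survive.

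All of these motors share the loop that grips the phosphates of ATP in the motor domain. The 24 coding bases of that loop are shown, in the transcript's direction, because they are where the 7 genes are most easily set side by side. Capitals mark the 13 bases that are identical in all 7 genes. Positions are in GRCm38 (mm10) on the plus strand, from the GENCODE M21 annotation, and each run lies within 1 coding exon of the transcript used.
Myo6 (chr9:80242224-80242247, exon 6): GGaGAatcaGGagCtGGcAAaACa
Myo15 (chr11:60483717-60483740, exon 7): GGgGAgagtGGctCtGGaAAgACt
Myo3a (chr2:22333643-22333666, exon 13): GGaGAaagtGGtgCtGGcAAgACa
Myo1c (chr11:75658422-75658445, exon 4): GGaGAgagtGGggCaGGcAAgACa
Myo1e (chr9:70316593-70316616, exon 5): GGtGAaagtGGtgCtGGaAAgACa
Myo5a (chr9:75130003-75130026, exon 5): GGaGAgtcaGGcgCaGGgAAgACg
Myo10 (chr15:25722171-25722194, exon 5): GGgGAaagcGGagCtGGgAAaACg
Between pairs of these runs, 2 to 10 of the 24 bases differed. *Myo3a* and *Myo1e* were the closest pair and *Myo6* and *Myo15* the farthest. Whole annotated transcripts, with their untranslated parts, were also searched for the longest exact stretch that each gene shared with another listed myosin. It ran from 21 bases, between *Myo10* and *Myo7b*, to 39 bases, between *Myo6* and *Myo7a*. No exon of another annotated gene overlapped an exon of these genes on either strand.

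The genes lie on 4 chromosomes, all on the plus strand. *Myo1e* (chr9:70207350-70399766), *Myo5a* (chr9:75071015-75223688) and *Myo6* (chr9:80165031-80311729) share chromosome 9, where *Myo5c* starts 8331 bases after the end of *Myo5a*. *Myo15* (chr11:60469339-60528369) and *Myo1c* (chr11:75650504-75673910) share chromosome 11. *Myo3a* lies at chr2:22227503-22618252 and *Myo10* at chr15:25622525-25813673.

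The Gfi1+/+ libraries held 13603908, 15899307 and 16136022 reads counted on genes, and the Gfi1cre/+ libraries 19359753, 18859199 and 17939607. Every Gfi1cre/+ library was thus deeper than every Gfi1+/+ library. *Gfi1* itself read 147, 160 and 152 normalized reads across the Gfi1+/+ libraries and 136, 130 and 139 across the Gfi1cre/+ libraries. Its groups did not overlap, and its log2 difference was -0.18 (95% interval -0.40 to 0.04), with an adjusted p of 0.999 by limma. The study explains that what remains of the transcript from the Cre copy still adds to this count. In its RT-qPCR of newborn cochleae the replaced exons were lower, while exons kept in both copies were not changed. Gfi1+/+ replicate 1 stood apart from the other libraries, at -44.0 on a first principal component that held 54.3% of the variance. On that component Gfi1+/+ replicates 2 and 3 lay at -0.304 and 2.15, and the Gfi1cre/+ libraries at 16.2, 14.8 and 11.1. Gfi1+/+ replicate 1 also held the most neuron marker RNA, with 12559 summed normalized reads over 12 markers against 3515 to 5872 in the other libraries. Of the markers of the labelled tissue, 13 of 15 hair cell, 11 of 12 supporting cell and all 6 stria marginal cell markers were read. The 10 erythroid markers read all had a higher fitted level in Gfi1cre/+, 8 of them with an unadjusted p under 0.05 and none past the adjusted threshold by limma. Among all genes tested, 1.02% had such a p and were higher in Gfi1cre/+. Y-linked genes summed to at most 2.10 normalized reads in Gfi1+/+ libraries and to between 794 and 1621 in Gfi1cre/+ libraries, so sex and genotype cannot be told apart.

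Per length, these motors spanned a wide range, with *Myo1e* 80.7-fold above *Myo3a* in Gfi1+/+. Levels between genes are given as normalized reads per kilobase of exons, as mean ± SD of 3 libraries. In Gfi1+/+ ducts, *Myo1e*, a class I motor of endocytosis and cell adhesion, stood at 344.6 ± 52.4, *Myo6*, which moves toward the pointed end of actin and anchors the base of stereocilia, at 308.3 ± 15.1, and *Myo1c*, a class I motor of membrane tension studied as a motor of hair cell adaptation, at 295.2 ± 22.1. The ranges of neighbours in this order overlapped, and the order of these 3 depended on the length used. *Myo6* led when levels were divided by the longest transcript or by the coding length, and per coding kilobase it reached 959 against 610 for *Myo1c* and 592 for *Myo1e*. *Myo10*, the filopodial motor, followed at 204 ± 21.7 per kilobase of exons, below every library of the first 3 genes.

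The other 3 genes lay lower. *Myo5a*, the carrier of melanosomes and of other vesicles, stood at 63.7 ± 5.09 normalized reads per kilobase of exons in Gfi1+/+ ducts. *Myo15*, which carries the elongation complex to the tips of stereocilia, stood at 28.6 ± 1.37. *Myo3a*, a motor with a kinase domain that also works at stereocilia tips, stood at 4.27 ± 0.851, the lowest mean of 20 unconventional myosins read in the table in this genotype. From *Myo1c* down, no library of a gene overlapped the gene next in order. The order *Myo10*, *Myo5a*, *Myo15*, *Myo3a* held with all 3 choices of length and in both genotypes.

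In Gfi1cre/+ ducts the levels per kilobase of exons were 340.8 ± 11.9 for *Myo1e*, 318 ± 3.37 for *Myo1c*, 315 ± 6.77 for *Myo6* and 210.03 ± 6.65 for *Myo10*. *Myo5a* stood at 63.4 ± 4.67, *Myo15* at 24.8 ± 3.77 and *Myo3a* at 4.25 ± 0.593, where *Myo16* was lower, at 4.07 ± 0.625. *Myo1c* and *Myo6* overlapped there, and no other neighbours did. Together the 7 genes held 53.4% to 55.0% of the summed level per kilobase of the 20 unconventional myosins in every library. *Myo7a*, the hair cell motor, stood 2.78-fold above *Myo15* in Gfi1+/+ and 3.10-fold above it in Gfi1cre/+. *Myo3b*, the paralog of *Myo3a*, stood 2.87-fold and 3.18-fold above *Myo3a*.

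**Figure D1:**
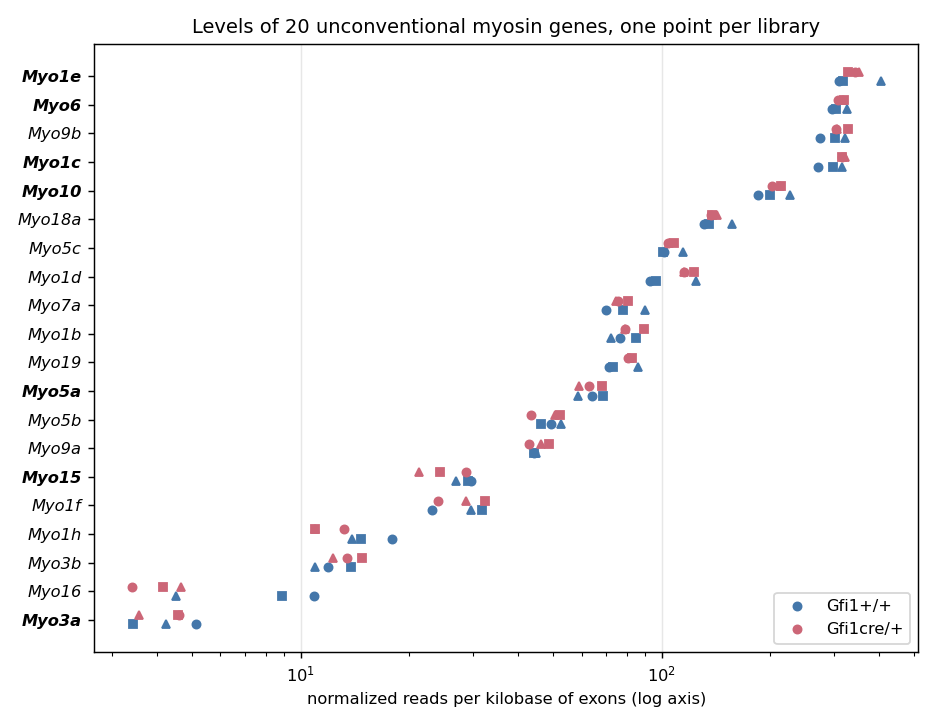
Levels of 20 unconventional myosin genes in normalized reads per kilobase of exons on a log axis, with 1 point for each of the 3 Gfi1+/+ (blue) and 3 Gfi1cre/+ (red) libraries and the shape marking the replicate. The 7 genes described are in bold, and they run from *Myo1e*, *Myo6* and *Myo1c*, between 295.2 and 344.6 on average in Gfi1+/+, down to *Myo3a* near 4.27.

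None of the 7 genes passed an adjusted p under 0.05 between the genotypes. With limma on log2(value + 1), adjusted over 14455 genes, all 7 had an adjusted p of 0.999, and 0 of 7 had an unadjusted p under 0.05 with limma, edgeR or DESeq2. Over all genes tested, 0.0277% passed the adjusted threshold and 3.04% had an unadjusted p under 0.05, with 1.02% higher and 2.02% lower in Gfi1cre/+. Of the 7 genes, 4 had a higher fitted level in Gfi1cre/+ and 3 a lower one, and their median log2 difference was 0.00, against -0.000116 over all genes tested. These are values of whole ducts, in which fewer cells of a type and less RNA per cell cannot be told apart. The p-values weigh each difference against the spread between these libraries. The limma fit took a common spread for both genotypes, although Gfi1+/+ libraries held 1 mouse and Gfi1cre/+ libraries 3 pooled mice.

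Among the stereociliary motors, *Myo6* was the most precisely measured. It read 3573, 3671 and 3926 normalized reads across the Gfi1+/+ libraries and 3709, 3861 and 3835 across the Gfi1cre/+ libraries. All 3 Gfi1cre/+ values lay inside the Gfi1+/+ range. Its log2 difference of 0.03 had a 95% interval from -0.10 to 0.16, that is from -6.40% to 11.5%, and the exact permutation test gave p = 0.6. With 1 library left out the difference ran from 0.0019 (without Gfi1+/+ replicate 1) to 0.070 (without Gfi1+/+ replicate 3).

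*Myo15* had the lowest fitted difference of the 7. It read 378, 372 and 345 normalized reads across the Gfi1+/+ libraries and 367, 311 and 272 across the Gfi1cre/+ libraries. Gfi1cre/+ replicates 2 and 3 lay below every Gfi1+/+ library, but replicate 1 lay above Gfi1+/+ replicate 3, so the groups overlapped. Its log2 difference was -0.21 (95% interval -0.46 to 0.03), that is from -27.3% to 2.32%, with an exact permutation p of 0.2. The value depended on single libraries: it was -0.33 without Gfi1cre/+ replicate 1 and -0.11 without Gfi1cre/+ replicate 3. Of the 13 hair cell markers read, 11 had a lower fitted level in Gfi1cre/+, with a median log2 difference of -0.12 over the 13. None had an unadjusted p under 0.05 by limma. The 11 include *Gfi1* itself, the replaced gene, at -0.18. The summed level of the 13 ran from 6724 to 7819 normalized reads in Gfi1+/+ and from 6341 to 6862 in Gfi1cre/+. The part of this in the *Myo15* value was not tested.

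*Myo3a* rested on few reads. It read 40.7, 27.2 and 33.8 normalized reads across the Gfi1+/+ libraries and 36.6, 36.4 and 28.3 across the Gfi1cre/+ libraries, from 26 to 42 reads a library. The groups overlapped throughout, and the highest and the lowest of the 6 values were both Gfi1+/+ libraries. Its log2 difference was 0.00, with a 95% interval from -0.58 to 0.59. That leaves a range from -33.2% to 50.3%, so a change of either sign within it remains possible. The gene passed the minimum of 40 normalized reads through Gfi1+/+ replicate 1 only.

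*Myo1c* was the 1 gene of the 7 whose groups did not overlap. It read 1787, 1968 and 2076 normalized reads across the Gfi1+/+ libraries and 2078, 2086 and 2120 across the Gfi1cre/+ libraries. The lowest Gfi1cre/+ value lay 2.47 normalized reads above the highest Gfi1+/+ value, a gap of 2.84 reads in that Gfi1cre/+ library. Over all genes tested, 7.52% had groups that did not overlap, against 14.3% (1 of 7) here. The log2 difference was 0.11 (95% interval -0.03 to 0.25), and the exact permutation p of 0.1 is the smallest that 3 against 3 libraries can give. Without Gfi1+/+ replicate 1, the library that stood apart, it was 0.05 (95% interval -0.08 to 0.18).

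The other class I gene, *Myo1e*, read 1771, 1816 and 2310 normalized reads across the Gfi1+/+ libraries. In Gfi1cre/+ it read 1956, 1870 and 2005, all inside the Gfi1+/+ range. Gfi1+/+ replicate 3 was the one high library. The log2 difference was -0.01 (95% interval -0.22 to 0.21), with an exact permutation p of 1.0.

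*Myo5a* read 947, 1017 and 866 normalized reads across the Gfi1+/+ libraries and 929, 1012 and 875 across the Gfi1cre/+ libraries. The 3 Gfi1cre/+ values again lay inside the Gfi1+/+ range. Its log2 difference was -0.01 (95% interval -0.19 to 0.17), with an exact permutation p of 0.9. Melanocytes of the stria vascularis are a known site of this motor, and the summed level of 7 melanocyte markers ran from 24277 to 25364 normalized reads in Gfi1+/+ and from 24084 to 25130 in Gfi1cre/+. Most of that sum was *Dct*, and 6 of the 7 markers had a lower fitted level in Gfi1cre/+, with a median log2 difference of -0.09. *Mitf*, the melanocyte transcription factor, was the 1 with an unadjusted p under 0.05 by limma, at a log2 difference of -0.15 with groups that did not overlap, and none passed the adjusted threshold. A lower level with such a p was found for 2.02% of all genes tested, and such groups for 7.52%.

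*Myo10* read 1870, 2018 and 2302 normalized reads across the Gfi1+/+ libraries and 2049, 2172 and 2157 across the Gfi1cre/+ libraries. The Gfi1+/+ libraries enclosed the Gfi1cre/+ libraries. Its log2 difference was 0.05 (95% interval -0.13 to 0.22), with an exact permutation p of 0.6. Without Gfi1+/+ replicate 1 the value was -0.02, on the other side of 0.

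**Figure D2:**
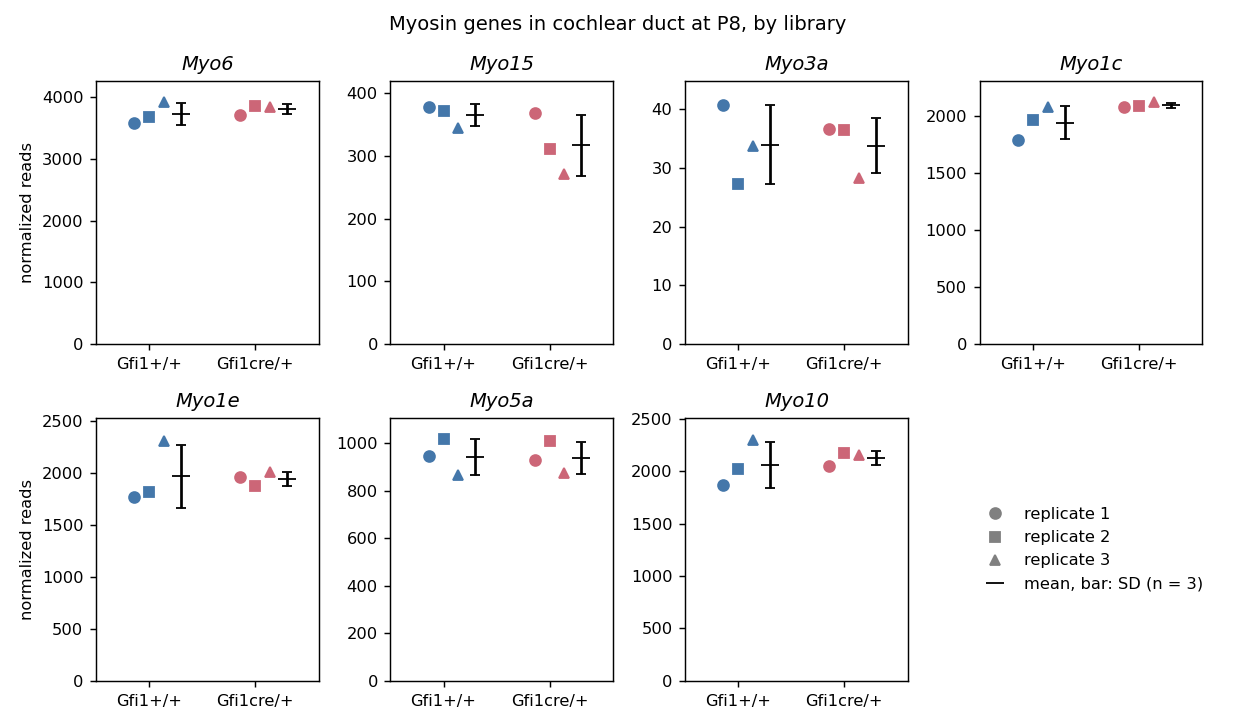
Normalized reads of the 7 genes in each library, on linear axes from 0, with Gfi1+/+ in blue, Gfi1cre/+ in red, the shape marking the replicate and the black bar the mean and SD of 3 libraries. The groups overlap in every panel but *Myo1c*, where they are 2.47 normalized reads apart.

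The coefficient of variation over the 3 libraries was lower in Gfi1cre/+ for 6 of the 7 genes, as it was for 71.1% of the genes tested. In *Myo5a* it was close in both, at 7.99% in Gfi1+/+ and 7.37% in Gfi1cre/+. In *Myo1e* it was 15.2% in Gfi1+/+ and 3.504% in Gfi1cre/+, in *Myo10* 10.6% and 3.16%, and in *Myo1c* 7.50% and 1.06%. *Myo15* went the other way, with 4.78% in Gfi1+/+ and 15.2% in Gfi1cre/+, where its highest library was 1.35-fold its lowest. Pooling of 3 mice, read depth and genotype cannot be told apart in these spreads, and no test was made of them.

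The spreads were set beside the error expected from read counting alone. In 3 of 14 pairs of gene and genotype the observed coefficient lay below it: *Myo1c* in Gfi1cre/+ (1.06% against 2.07%), *Myo15* in Gfi1+/+ (4.78% against 5.51%) and *Myo3a* in Gfi1cre/+. For *Myo3a* the expected counting error was 18.2% in Gfi1+/+ and 16.3% in Gfi1cre/+, beside observed coefficients of 19.9% and 13.96%. For *Myo6* it was 1.72% and 1.54%, beside 4.89% and 2.15%. For *Myo15* in Gfi1cre/+ it was 5.32%, below the 15.2% observed. These errors cover counting only.

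**Figure D3:**
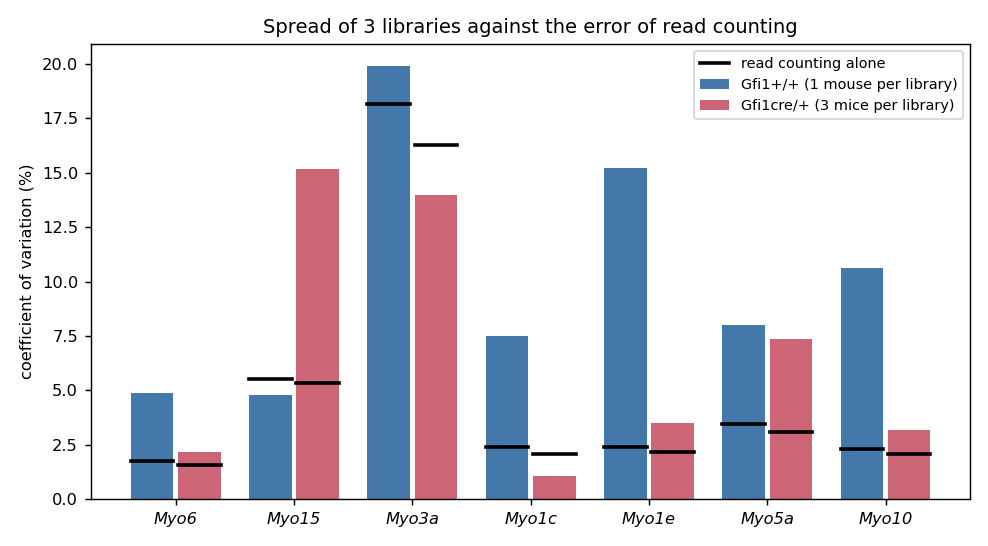
Coefficient of variation of the 3 libraries of each genotype for the 7 genes (bars, in percent, from 0), with black lines at the value that read counting alone would give. Red Gfi1cre/+ bars are lower than blue Gfi1+/+ bars except for *Myo15*, and *Myo3a* lies near its counting error in both genotypes.

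The study normalized its RT-qPCR of *Gfi1* exons in newborn cochlear tissue to *Myo7a*, so each gene was also set against *Myo7a* within the same library. *Myo7a* read 601, 669 and 769 normalized reads across the Gfi1+/+ libraries and 647, 691 and 641 across the Gfi1cre/+ libraries, a log2 difference of -0.04. Relative to it, *Myo1c* had log2 ratios of 1.57, 1.56 and 1.43 in Gfi1+/+ and 1.68, 1.59 and 1.72 in Gfi1cre/+. *Myo10* had log2 ratios of 1.64, 1.59 and 1.58 in Gfi1+/+ and 1.66, 1.65 and 1.75 in Gfi1cre/+. For both genes every Gfi1cre/+ library lay above every Gfi1+/+ library, with log2 differences of 0.15 and 0.09. The exact permutation p was 0.1 each, the smallest the design allows, before any adjustment over the 7 genes. How many of all genes tested would also lie apart relative to *Myo7a* was not computed. The lower *Myo7a* mean in Gfi1cre/+ enters every ratio, so this separation is not a result about these genes alone. *Myo7a* is the hair cell motor, whereas class I and X motors are made in many cell types. The part of hair cell content in these ratios was not tested. The groups of the other 5 genes overlapped. Their log2 differences relative to *Myo7a* were -0.18 for *Myo15*, 0.07 for *Myo6*, 0.04 for *Myo3a* and 0.03 for both *Myo1e* and *Myo5a*, with exact permutation p-values from 0.4 to 1.

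**Figure D4:**
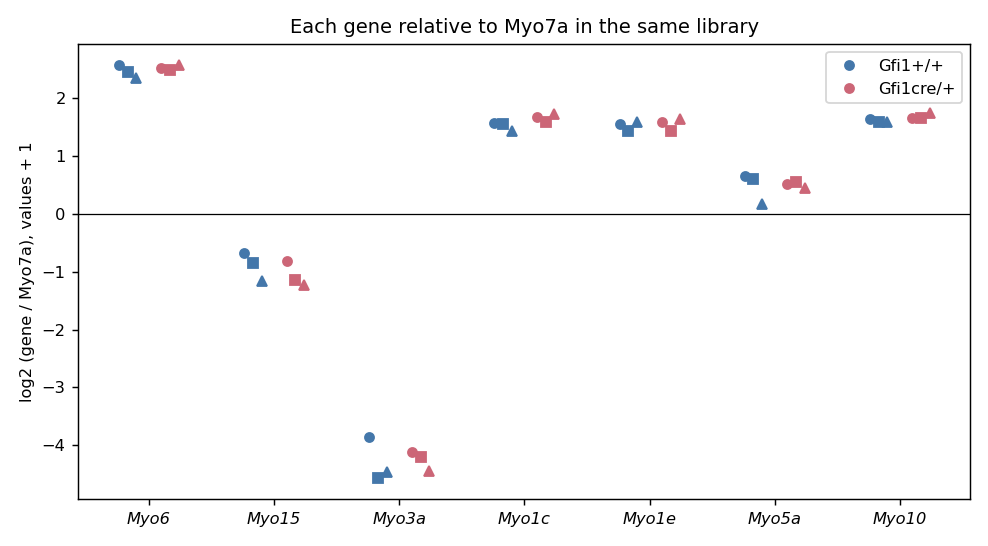
Log2 ratio of each gene to *Myo7a* in the same library (values + 1), for 3 Gfi1+/+ (blue) and 3 Gfi1cre/+ (red) libraries, the shape marking the replicate. *Myo15* and *Myo3a* lie below *Myo7a* in every library, and the groups are apart for *Myo1c* and *Myo10* only. The share of all genes apart on this ratio was not computed.

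None of the other unconventional myosins passed the adjusted threshold either. Of 17 further genes on the list, 13 were read and tested, of which 8 had a higher and 5 a lower fitted level in Gfi1cre/+. Their median log2 difference was 0.01, and 2 had by limma an unadjusted p under 0.05, both lower. Of all genes tested, 2.02% were lower with such a p. *Myo1h*, a class I motor, read 106, 86.9 and 82.3 normalized reads across the Gfi1+/+ libraries and 78.3, 64.8 and 65.1 across the Gfi1cre/+ libraries. Its groups did not overlap, as in 7.52% of all genes tested, at a log2 difference of -0.39 (95% interval -0.75 to -0.04). *Myo16*, a motor known from neurons, read 86.4, 70.2 and 35.9 normalized reads in Gfi1+/+ and 27.0, 32.8 and 36.8 in Gfi1cre/+.

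Gfi1+/+ replicates 1 and 2 were high for *Myo16*, and its log2 difference was -0.89 (95% interval -1.62 to -0.16). The same libraries had the highest summed level of the 12 neuron markers, all 12 of which had a lower fitted level in Gfi1cre/+, 5 with an unadjusted p under 0.05 and none past the adjusted threshold by limma, and the part of this in the *Myo16* value was not tested. A lower level with such a p was found for 2.02% of all genes tested. The highest levels per kilobase on this list were those of *Myo9b*, *Myo18a* and *Myo1d*, with log2 differences of 0.06, -0.02 and 0.18.

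**Figure D5:**
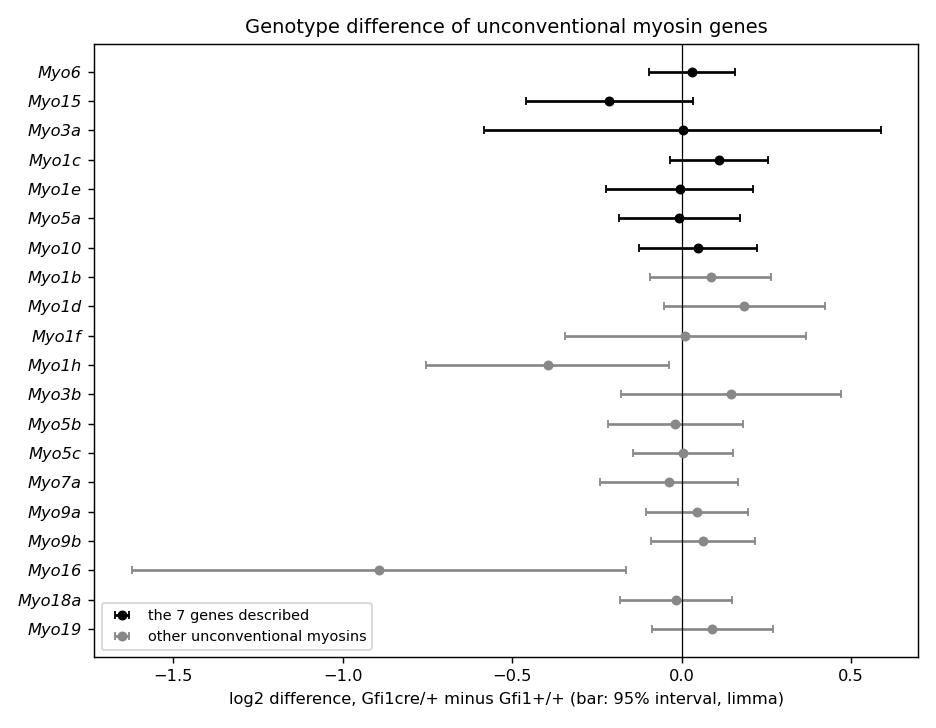
Log2 difference of Gfi1cre/+ minus Gfi1+/+ for the 7 genes (black) and 13 other unconventional myosins (grey), with bars for the 95% interval by limma. The intervals of all 7 genes include 0, and those of *Myo1h* and *Myo16* lie below it.

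The motors' subunits and partners were read from further lists. Of 11 light chains and calmodulins, 10 had a lower and 1 a higher fitted level in Gfi1cre/+, with a median log2 difference of -0.05, and *Myl6b*, an essential light chain, was the 1 gene with an unadjusted p under 0.05. *Myl6b* read 148, 162 and 167 normalized reads across the Gfi1+/+ libraries and 128, 132 and 141 across the Gfi1cre/+ libraries, which did not overlap, at a log2 difference of -0.25. The calmodulin genes *Calm3* and *Calm2*, which code for the light chain of many of these motors, had log2 differences of -0.07 and -0.05. None of the 11 passed the adjusted threshold by limma. Of all genes tested, 2.02% were lower with an unadjusted p under 0.05, and 7.52% had groups that did not overlap.

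Of 30 partners and cargo adaptors, 16 had a higher and 14 a lower fitted level, and 0 had an adjusted or unadjusted p under 0.05 by limma. Their log2 differences ran from -0.34 to 0.14 with a median of 0.01. The groups did not overlap for 2 of the 30, *Rab3a* (-0.34) and *Rab10* (-0.06), both lower in Gfi1cre/+. Such groups were found for 7.52% of all genes tested. The partners named next were picked for their role after their values were seen. Those of *Myo15* in stereocilia elongation had log2 differences of 0.14 for *Whrn*, -0.01 for *Eps8*, 0.01 for *Gpsm2* and 0.03 for *Gnai3*. *Espn* and *Espnl*, whose proteins travel with class III motors, stood at -0.12 and 0.06. *Gipc1*, an adaptor of *Myo6*, stood at -0.00, *Mlph*, which ties *Myo5a* to melanosomes, at 0.04, and *Itgb1*, an integrin carried by *Myo10*, at 0.04.

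The conventional myosins, which form filaments, were read for comparison. The non-muscle heavy chains *Myh9*, *Myh10* and *Myh14* had log2 differences of 0.09, -0.01 and 0.03, and none had an unadjusted p under 0.05 by limma. Of the muscle heavy chains, 3 were tested, *Myh6*, *Myh11* and *Myh13*, at 0.20, -0.03 and -0.38, also with none under it.

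Promoters are shown for *Myo15* and *Myo1c*, the genes with the lowest and the highest fitted difference, because GFI1 binds DNA through an AATC core. The windows run from 250 bases before to 50 after a RefSeq transcript start in GRCm38.p6, and capitals mark AATC read on either strand.
Myo15 (chr11:60469089-60469388, plus strand): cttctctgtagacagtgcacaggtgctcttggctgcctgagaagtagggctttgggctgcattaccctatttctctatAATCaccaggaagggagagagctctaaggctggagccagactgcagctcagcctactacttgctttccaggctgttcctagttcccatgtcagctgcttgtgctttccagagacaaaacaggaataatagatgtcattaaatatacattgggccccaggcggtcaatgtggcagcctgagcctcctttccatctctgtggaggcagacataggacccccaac
Myo1c (chr11:75650269-75650568, plus strand): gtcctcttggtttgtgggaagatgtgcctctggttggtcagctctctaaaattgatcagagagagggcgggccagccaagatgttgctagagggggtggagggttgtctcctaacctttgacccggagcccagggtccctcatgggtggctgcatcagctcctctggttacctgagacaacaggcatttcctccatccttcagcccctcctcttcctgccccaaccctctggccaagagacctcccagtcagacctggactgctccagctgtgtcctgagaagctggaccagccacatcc
The *Myo15* window held 1 match and this *Myo1c* window none. Of the other 2 *Myo1c* windows, 1 (chr11:75651900-75652199) held 2 matches, more than the *Myo15* window, and the other held none. Windows were found for all 7 genes, 10 windows in all, and 7 of the 10 held AATC, while 73.1% of all 32851 windows of this length did. The longer motif AAATCAC, which contains the core, was in 0 of the 10 and in 3.20% of all windows. No binding was measured in these samples, so these matches only describe letters.

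The genes whose pattern over the 6 libraries was most like that of each motor were named by Pearson's r, among 13921 other genes whose mean reached 40 normalized reads. They were *Rab26* and *Mt3* for *Myo15* (0.997 each), *Pxn* and *Nr3c2* for *Myo10* (0.998 each), and *Prkcsh* for *Myo1e* (0.999). For *Myo6* they were *Aff1* and *Kdm4b* (0.996 and 0.994), for *Myo1c* *Gm11650* and *Mepce* (0.998 and 0.991) and for *Myo5a* *1110051M20Rik* and *Prps2* (0.990 and 0.988). For *Myo3a*, itself below that mean and set against 13922 genes, they were *Mcu* and *Slc30a5* (0.983 and 0.978). From 18 to 244 genes exceeded 0.95 for each motor. The r rests on only 6 libraries that differ in genotype and depth, so these likenesses are a description. Among the 7 themselves, *Myo6* and *Myo10* were the most alike, at 0.986.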

How the data were processed

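RNA-seq of P8 cochlear duct was used, 3 Gfi1+/+ and 3 Gfi1cre/+ libraries, which the study describes as independent biological replicates. Per the methods, the authors aligned TruSeq paired-end reads with Tophat, counted unique reads with HTSeq-count, kept genes with at least 40 reads and applied quantile normalization; the submitters' processing notes name mm10. Versions, annotation and strand setting are not given in the sources used here. The deposited signal was instead a whole number of reads divided by 1 size factor per library (100% of values within 0.01), and was used unchanged.

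limma 3.58.1 (R 4.3.3) was fitted to log2(value + 1), genotype the only term, with a trend, two-sided, over the 14455 genes that reached 40 normalized reads in 1 or more libraries, with Benjamini-Hochberg adjustment. A fold on this scale understates changes of low genes. Single genes had two-sided exact permutation tests over libraries. edgeR 4.0.16 and DESeq2 1.42.0 on the recovered read counts were alternatives, beside other pseudocounts, minima and scalings, the replicate number as a block, and each library left out. The limma step was tested on simulated counts with planted changes larger than the differences of the 7 genes. That test does not measure power at their size. Of 14865 identifiers, 14791 matched GENCODE M21, which gave positions and lengths. The rule for naming genes of a list took those with an unadjusted p under 0.05 and the 3 highest per kilobase. Some are given only in counts, and partners named for their role or for groups that did not overlap are marked. The 7 genes and the lists were chosen with earlier results of these data known. For each of the 7 genes the most alike genes by Pearson's r were also named, up to 2 a gene; 1 of these is not reported here.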

Additional observations from a re-analysis of the deposited data

How the results depend on the processing

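Over 111 combinations of gene and alternative, 103 kept the direction of the difference, and none passed the adjusted threshold (smallest adjusted p 0.202, limma). All 69 that kept the 6 libraries kept it. The 8 that turned each left out 1 library: Gfi1+/+ replicate 2 or Gfi1cre/+ replicate 1 or 2 for *Myo3a* (range over libraries left out -0.14 to 0.14), Gfi1+/+ replicate 3 or Gfi1cre/+ replicate 2 for *Myo1e* (-0.076 to 0.12), Gfi1+/+ replicate 2 or Gfi1cre/+ replicate 3 for *Myo5a* (-0.067 to 0.049), and Gfi1+/+ replicate 1 for *Myo10* (-0.020 to 0.13). Relative to *Myo7a* the ranges with a turn were -0.10 to 0.26 for *Myo3a*, -0.013 to 0.092 for *Myo1e* and -0.12 to 0.12 for *Myo5a*. With 1 library left out, *Myo15* ran from -0.33 (without Gfi1cre/+ replicate 1, unadjusted limma p 0.0106, adjusted p 0.999) to -0.11 (without Gfi1cre/+ replicate 3). Without Gfi1+/+ replicate 3, *Myo1c*, *Myo1e* and *Myo10* had an unadjusted p under 0.05 by limma, as did 2340 genes in all. Over all genes, 4 were called, with 0 (without Gfi1cre/+ replicate 3) to 48 (without Gfi1+/+ replicate 3) called when 1 library was left out, 8 without Gfi1+/+ replicate 2, 10 by DESeq2 and 0 at a mean of at least 200 normalized reads, where *Myo3a* has no value. Calls among the neuron markers ran from 0 to 1 with 1 library left out, and DESeq2 called 2 erythroid markers. edgeR and DESeq2 called none of the other myosins, light chains or partners. The causes were not tested.

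Same-numbered libraries did not deviate together (correlations -0.0944, 0.107 and -0.0326), so the numbers were not taken to pair samples. With the replicate number as a block, 4 genes were called, as without it, and *Myo15* kept a log2 difference of -0.21, with an unadjusted limma p of 0.0436 (0.0817 without the block) and an adjusted p of 0.999. Read counts limit *Myo3a* most.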
